A study of Mus musculus with 6 samples.

Results

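The genes described here are Pdk1, P4ha1 and 8 genes of glycolysis, Pgk1, Ldha, Aldoa, Eno1, Pkm, Gpi1, Tpi1 and Slc2a1, measured in CD4+CD8+ double-positive thymocytes of Sox13 transgenic mice and of their wild-type littermates. Members were taken by symbol, as all probe sets annotated to these 10 genes, out of 8511 genes named on the arrays, and the choice was made with their ratios between genotypes already known. Probe sets were found for 8 of the 10 genes, 23 of 25470 probe sets in all. No probe set used here was annotated to Eno1 or Gpi1. One Mu11K B probe set was annotated to the human symbol GPI, lay below the floor in both genotypes and was not counted as a member.

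Double-positive thymocytes carry both coreceptors and are on their way to becoming alpha-beta T cells, while Sox13 encodes an HMG-box protein known from gamma-delta T cells. The transgenic samples were cells of Sox13 transgenic C57BL/6 mice and the wild-type samples cells of C57BL/6 mice, in both cases females 6 weeks old, and every sort started from thymuses of 2 or more mice, so the spread between single mice was not measured. The promoter that drives the transgene is not given in the sources used here. Experiment 1 used a Mu11K A and a Mu11K B array per genotype, with no probe set in common and counted together as 1 replicate, and experiment 2 used the U74A version 2 array, with 1 transgenic and 1 wild-type sample on each array type. All values are intensities scaled so that the 2% trimmed mean of an array is 500, with lower values raised to a floor of 100 and a probe set compared where either genotype exceeded it, and all ratios are transgenic over wild type on the log2 scale.

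Glycolysis splits glucose into pyruvate in the cytosol, and lactate dehydrogenase can then turn pyruvate into lactate. The pyruvate dehydrogenase complex instead feeds pyruvate into the mitochondrial tricarboxylic acid cycle, and Pdk1 (pyruvate dehydrogenase kinase 1) phosphorylates and inhibits that complex. P4ha1 is the catalytic alpha subunit of collagen prolyl 4-hydroxylase, which modifies prolines of collagen in the endoplasmic reticulum. All 10 genes are known as targets of the hypoxia-inducible factor HIF-1 in some cell types, and resting thymocytes are small cells that take up little glucose. HIF-1 binds the hypoxia response element, whose core is ACGTG or GCGTG.

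The promoter windows of 4 members are shown because HIF-1 is the textbook regulator that Pdk1 and P4ha1 share with the glycolytic enzymes. Each window holds 250 bases before and 50 bases after a RefSeq transcription start (GRCm38.p6), taken at the most upstream start that the promoter table lists for the gene. Capitals mark every ACGTG or GCGTG on either strand, so that CACGT and CACGC in the printed strand are matches too.
Pdk1 promoter (chr2:71872974-71873273, plus strand): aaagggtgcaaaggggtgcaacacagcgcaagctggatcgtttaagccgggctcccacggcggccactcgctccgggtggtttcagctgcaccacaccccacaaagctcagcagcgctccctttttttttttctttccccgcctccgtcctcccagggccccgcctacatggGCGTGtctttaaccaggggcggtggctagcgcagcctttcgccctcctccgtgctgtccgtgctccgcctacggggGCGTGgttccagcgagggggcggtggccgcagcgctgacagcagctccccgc
P4ha1 promoter (chr10:59323046-59323345, plus strand): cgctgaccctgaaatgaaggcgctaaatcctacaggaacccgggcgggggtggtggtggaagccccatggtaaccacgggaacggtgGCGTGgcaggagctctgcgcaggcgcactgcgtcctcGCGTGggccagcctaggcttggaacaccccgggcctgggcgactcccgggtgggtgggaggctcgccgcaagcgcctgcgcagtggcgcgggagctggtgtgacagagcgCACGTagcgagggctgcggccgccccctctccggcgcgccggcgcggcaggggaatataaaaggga
Pgk1 promoter (chrX:106186850-106187149, plus strand): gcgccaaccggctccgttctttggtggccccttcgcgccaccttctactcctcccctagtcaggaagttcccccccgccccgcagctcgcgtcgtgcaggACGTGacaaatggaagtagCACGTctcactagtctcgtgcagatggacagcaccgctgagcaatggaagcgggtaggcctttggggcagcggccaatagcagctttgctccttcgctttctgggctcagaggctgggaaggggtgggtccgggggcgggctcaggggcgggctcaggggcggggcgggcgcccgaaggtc
Ldha promoter (chr7:46845554-46845853, plus strand): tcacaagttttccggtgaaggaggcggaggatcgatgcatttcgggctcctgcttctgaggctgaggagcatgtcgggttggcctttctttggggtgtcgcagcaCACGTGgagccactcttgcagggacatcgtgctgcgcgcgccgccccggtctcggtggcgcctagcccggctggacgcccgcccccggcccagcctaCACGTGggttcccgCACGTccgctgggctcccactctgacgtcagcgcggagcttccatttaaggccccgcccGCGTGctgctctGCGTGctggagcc

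The Pdk1 window held GCGTG 2 times and ACGTG 0 times, with the matches beginning 78 and 2 bases before the start. The P4ha1 window held GCGTG 2 times and ACGTG 1 time, beginning 163, 126 and 16 bases before the start. The Pgk1 window held ACGTG 2 times, and the Ldha window held 7 matches in 5 separate stretches, of which 2 stretches spell CACGTG, a sequence that counts once on each strand and is also the E-box bound by Myc and its relatives. At the most upstream start, 6 of the 10 members had at least 1 match. Over all 17 windows of the members 12 did, where 43.8% of all 32851 promoter windows of this length hold 1. Windows 2 and 3 of Aldoa, counted from the most upstream, overlap and hold the same match. Windows 2 and 3 of Eno1 likewise share their matches, so the 12 windows are not independent. The windows of Tpi1 and Gpi1 and the most upstream windows of Aldoa and Pkm had 0 matches. CACGTG was found in 1 of the 17 windows, against 7.15% of all windows. A match describes letters only and is not a binding site.

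Before the members, the arrays themselves differed in spread. On the Mu11K arrays of experiment 1, 53.7% and 57.4% of the A probe sets and 46.9% and 51.4% of the B probe sets lay above the floor in the transgenic and the wild-type sample, and 54.1% (transgenic) and 55.1% (wild type) did on U74A. The SD of the log2 ratios over the 3237 genes measured in both experiments was 0.78 in experiment 1 and 0.33 in experiment 2. The Sox13 probe set of experiment 1 read 5951 in transgenic cells and lay under the floor in wild-type cells, and that of experiment 2 read 3832 in transgenic cells and 599.6 in wild-type cells, as the labels have it. All 13 double-positive thymocyte markers with a probe set were above the floor in both genotypes. Their sum in transgenic cells came to 78.2% of the wild type on Mu11K A, 103% on Mu11K B and 94.6% on U74A. These sums joined genes of different direction. Of 12 measured in both experiments, 2 were higher in both, 5 lower in both and 5 of opposite sign, against 23.9% higher and 30.4% lower over all genes. Ptcra had log2 ratios of 1.61 and 0.58, and Rag2 -2.02 and 0.08. B cell markers summed to 162%, 158% and 113% of the wild type on Mu11K A, Mu11K B and U74A. Of these, 3 of 13 genes (Cd22, Ebf1 and Pou2af1) lay at or below the floor in every sample. Erythroid markers summed to 93.3%, 250% and 117%, with Alas2 and Epb42 at or below the floor in every sample. The erythroid sums joined genes of opposite direction: the globin genes Hba-a1 (log2 ratios 1.90 and 2.76) and Hbb-b2 (3.04 and at least 1.54) were higher and passed in limma (adjusted p = 0.0154 and 0.0399, reaching 0.846 in other settings), whereas Car2 had at most -0.98 and at most -1.64. Of 7 erythroid genes measured in both experiments, these 2 globin genes were higher in both, 4 were lower in both (Car2, Gata1, Ank1 and Tfrc) and 1 was of opposite sign. Of the B cell list, 7 genes were measured in both experiments, with 5 higher in both, 0 lower in both and 2 of opposite sign. Over all 3237 genes, 23.9% were higher in both and 30.4% lower in both. Cd74 had 1.23 and 0.95, H2-Aa 1.34 and 1.08 and Blk at least 1.37 and at least 1.02. None of these passed the threshold (adjusted p = 0.482 to 0.643, limma). The 2 of opposite sign were Cd79b (0.58 and -0.23) and Ms4a1 (-0.14 and at least 0.83). Myeloid markers summed to 92.4%, 98.8% and 121%, with 5 of 16 genes at or below the floor in every sample. Of 6 measured in both experiments, 2 were higher in both, 1 lower in both and 3 of opposite sign. The 2 higher were Ctss (1.32 and 1.24) and Camp (0.47 and 0.45), neither past the threshold (adjusted p = 0.431 and 0.872, limma). The part of the B cell, erythroid and myeloid cell types in the values below was not tested.

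Pdk1 (GRCm38.p6 chromosome 2, 71873215 to 71903858) was the member with the largest difference, and it was lower in the transgenic sample of both experiments. In experiment 1 its 1 probe set (Mu11K A) had an intensity of 127.1 in the transgenic sample, against 991.9 in the wild type. In experiment 2 its 1 probe set (U74A) had 699.5 in the transgenic sample, against 1689 in the wild type. All 4 values lay above the floor, although the first lay close to it. The differences were 7.81-fold and 2.42-fold lower, or log2 ratios of -2.96 and -1.27, with a mean of -2.12 ± 1.20 (SD, n = 2 experiments). Since the transgenic value of experiment 1 is near the floor, its log2 ratio was -2.31 with a floor of 200. With the floor of 100, the Mu11K A ratio was the lowest of 3882 probe sets that exceeded the floor in either genotype, and on U74A it ranked 15 from the bottom of 7109. In these sorted samples, fewer cells of a type and less RNA per cell cannot be told apart.

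P4ha1 (GRCm38.p6 chromosome 10, 59323197 to 59373304) was also lower in both transgenic samples, at low levels. Its probe set of experiment 1 (Mu11K A) had 164.6 in the transgenic sample and 370.2 in the wild type. Its probe set of experiment 2, which the platform annotation ties to the same GenBank entry, had 155.9 in the transgenic sample and 288.3 in the wild type. Both experiments placed the transgenic level close to the floor. The log2 ratios were -1.17 and -0.89, or 2.25-fold and 1.85-fold lower, with a mean of -1.03 ± 0.20 (SD, n = 2 experiments). Stromal and epithelial markers, named here because collagen enzymes are abundant in such cells, summed to 88.5%, 61.7% and 88.5% of the wild type on Mu11K A, Mu11K B and U74A, with 8 of 15 genes at or below the floor in every sample. On Mu11K A, 0 of 10 probe sets exceeded the floor in the transgenic sample and 2 in the wild type. On U74A, 3 of 20 did in the transgenic sample and 4 in the wild type, so both sums of 88.5% consist largely of floor values. Only 3 of 13 of these probe sets exceeded the floor on Mu11K B in each genotype. The sum there followed Vim, the vimentin gene, at 927 in the transgenic sample against 2274 in the wild type. Of 3 genes of the list measured in both experiments, 0 were higher in both and 3 lower in both, against 23.9% and 30.4% over all genes. These were Pecam1 (at most -1.11 and at most -0.90), Col1a1 (at most -0.21 and -0.02) and Kdr (-0.21 and at most -0.14), all at low levels. The part of these cells in the P4ha1 ratio was not tested. In rank, P4ha1 stood 332 from the bottom of 3882 on Mu11K A and 67 from the bottom of 7109 on U74A.

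A difference of 2-fold or more downward was found for 2 of 5 member probe sets on Mu11K A (Pdk1 and P4ha1), where 11.7% of the probe sets above the floor reached it, for 0 of 7 on Mu11K B, where 13.9% did, and for 1 of 9 on U74A (Pdk1), where 0.563% did. A difference of 2-fold or more upward was found for 0 of the 21 member probe sets above the floor, against 4.56%, 6.15% and 0.971% on these arrays. The members were picked from this same contrast, so these shares describe them and test nothing. Over the 3237 genes, 0.0618% were 2-fold or more lower in both experiments, which are the 2 genes Pdk1 and Zdhhc14, the second named after its values were seen. With the mean of both experiments, Pdk1 ranked 2 from the bottom of the 3237 genes and P4ha1 ranked 52.

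**Figure D1:**
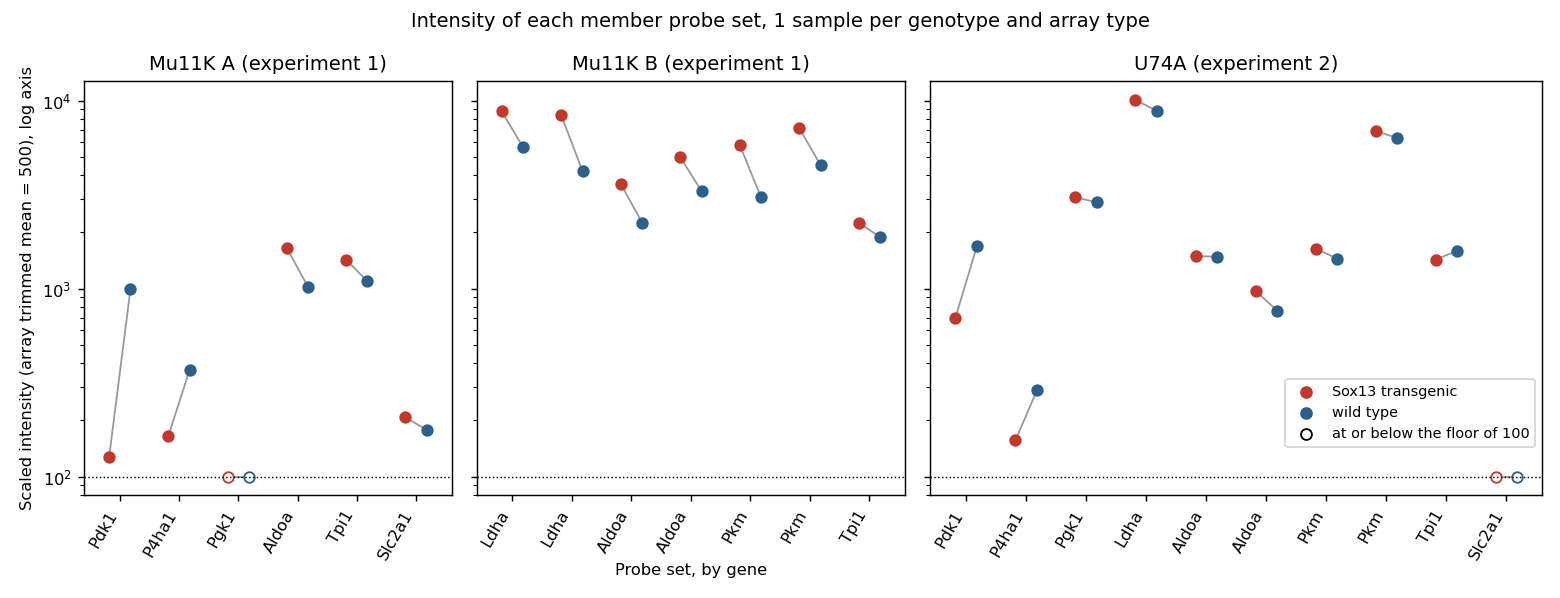
Scaled intensity on a log axis of the 23 member probe sets, by array type, with the Sox13 transgenic sample (red) left of the wild type (blue) and open points at or below the floor of 100. Pdk1 lies at 127.1 and 699.5 in the transgenic samples against 991.9 and 1689 in the wild type, P4ha1 is lower in both, and the Ldha, Aldoa and Pkm points of Mu11K B are higher in the transgenic sample.

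Ldha, the muscle-type subunit of lactate dehydrogenase, was higher in the transgenic samples, more so in experiment 1. Its 2 probe sets of Mu11K B had 8767 and 8379 in the transgenic sample, against 5662 and 4216 in the wild type. Its U74A probe set had 10089 in the transgenic sample and 8796 in the wild type. The Mu11K B log2 ratios were 0.63 and 0.99 and the U74A one was 0.20, so the mean over experiments was 0.50 ± 0.43 (SD, n = 2). The spread between the experiments was nearly as large as that mean.

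Pkm encodes the muscle-type pyruvate kinase, the enzyme of the last step of glycolysis. Its 2 Mu11K B probe sets read 5817 and 7151 in the transgenic sample, against 3052 and 4518 in the wild type. Its 2 U74A probe sets read 1633 and 6897 in the transgenic sample, against 1444 and 6324 in the wild type. All 4 were higher in the transgenic sample, with log2 ratios of 0.93 and 0.66 in experiment 1 and of 0.18 and 0.13 in experiment 2. The mean over experiments was 0.47 ± 0.46 (SD, n = 2). The pair of probe sets drawn from the same GenBank entry in both experiments gave 0.66 on Mu11K B and 0.13 on U74A.

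Aldoa encodes aldolase A, which splits fructose 1,6-bisphosphate into triose phosphates. Its Mu11K A probe set read 1645 in the transgenic sample, against 1015 in the wild type, and its 2 Mu11K B probe sets read 3617 and 5009 in the transgenic sample, against 2242 and 3296 in the wild type. Its 2 probe sets of experiment 2 gave 1488 and 971.3 in the transgenic sample, against 1478 and 764.5 in the wild type. The ratios of experiment 1 lay close together, from 0.60 to 0.70, across 2 array types. Those of experiment 2 were 0.01 and 0.35, and the mean over experiments was 0.42 ± 0.34 (SD, n = 2).

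Tpi1, triosephosphate isomerase, which interconverts the products of aldolase, differed in sign between the experiments. In experiment 1 its probe sets read 1424 (Mu11K A) and 2236 (Mu11K B) in the transgenic sample, against 1093 and 1881 in the wild type, with log2 ratios of 0.38 and 0.25. On U74A it had 1425 in the transgenic sample and 1588 in the wild type, a log2 ratio of -0.16. The mean of 0.08 ± 0.33 (SD, n = 2) was smaller than the spread between the experiments.

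Pgk1, phosphoglycerate kinase 1, carries out the first ATP-forming step of the pathway, and Slc2a1 encodes the glucose transporter GLUT1. Pgk1 could be read in experiment 2 alone, at 3060 in the transgenic sample and 2873 in the wild type (log2 ratio 0.09), since its Mu11K A probe set lay below the floor in both genotypes although it is tied to the same GenBank entry. Slc2a1 could be read in experiment 1 alone, at 206.5 in the transgenic sample and 177.3 in the wild type (log2 ratio 0.22). Its U74A probe set, at 91.4 in the transgenic sample and 29.0 in the wild type, was below the floor in both, so no ratio was formed. Both genes thus rest on 1 ratio with no replicate.

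Over the 6 glycolytic members with a measured ratio, 10 of 10 probe sets were higher in the transgenic sample in experiment 1, from 0.22 to 0.99 with a median of 0.65. In experiment 2, 6 of 7 were higher, from -0.16 to 0.35 with a median of 0.13. Counting all members above the floor, 3 of 5 probe sets were higher on Mu11K A, where 45% of the probe sets above the floor were higher and 55% lower. The count was 7 of 7 on Mu11K B, where 40.8% were higher and 59.2% lower over all probe sets, but 66% were higher among the bright ones (both intensities 2000 or more) of the family-sharing kind described below, to which 6 of the 7 belong, and it was 6 of 9 on U74A, where 45.9% were higher and 54.1% lower. These probe sets share the same RNA samples and, in part, the same genes, so they are not replicates. At the level of genes, Ldha, Aldoa and Pkm were higher in both experiments, against 23.9% of the 3237 genes, and Pdk1 and P4ha1 were lower in both, against 30.4%.

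**Figure D2:**
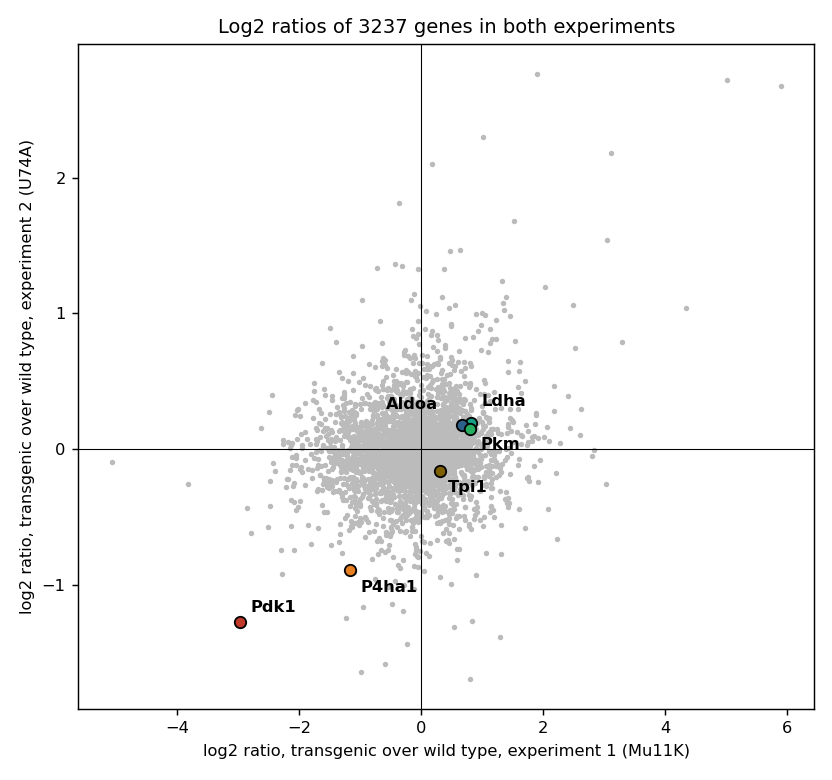
Log2 ratio of transgenic over wild type in experiment 1 (x axis) and experiment 2 (y axis) for 3237 genes (grey), with the 6 members measured in both in colour. Pdk1 at -2.96 and -1.27 and P4ha1 at -1.17 and -0.89 lie in the lower left, and Ldha, Aldoa and Pkm lie together at 0.66 to 0.81 and 0.15 to 0.20.

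Brightness and the kind of probe set differed between the members. On the Mu11K arrays the ratio moved with intensity: probe sets with both intensities at 2000 or more had a median log2 ratio of 0.17 (Mu11K A) and 0.13 (Mu11K B), and those with both under 500 had -0.20 and -0.25. The same medians were 0.01 and -0.05 for U74A. Ldha, Aldoa and Pkm were bright on Mu11K B and P4ha1 was dim. After an intensity-dependent loess fit, the glycolytic ratios of Mu11K B were 0.50 and 0.86 for Ldha, 0.58 and 0.49 for Aldoa, 0.81 and 0.54 for Pkm and 0.17 for Tpi1, and Pdk1 and P4ha1 on Mu11K A were at -2.74 and -0.91. These ratios had the same sign before and after the fit. All 7 member probe sets of Mu11K B, and 12 of the 23 in all, carry the suffix by which the manufacturer marks sets whose probes match several members of a sequence family, so signal of pseudogenes or related genes cannot be separated there. Bright probe sets with this suffix had a median log2 ratio of 0.15 on Mu11K B. The Mu11K A probe sets of Pdk1 and P4ha1 are among 5 of the 23 with another suffix, _s_at. Whether those sets read only 1 transcript was not tested.

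**Figure D3:**
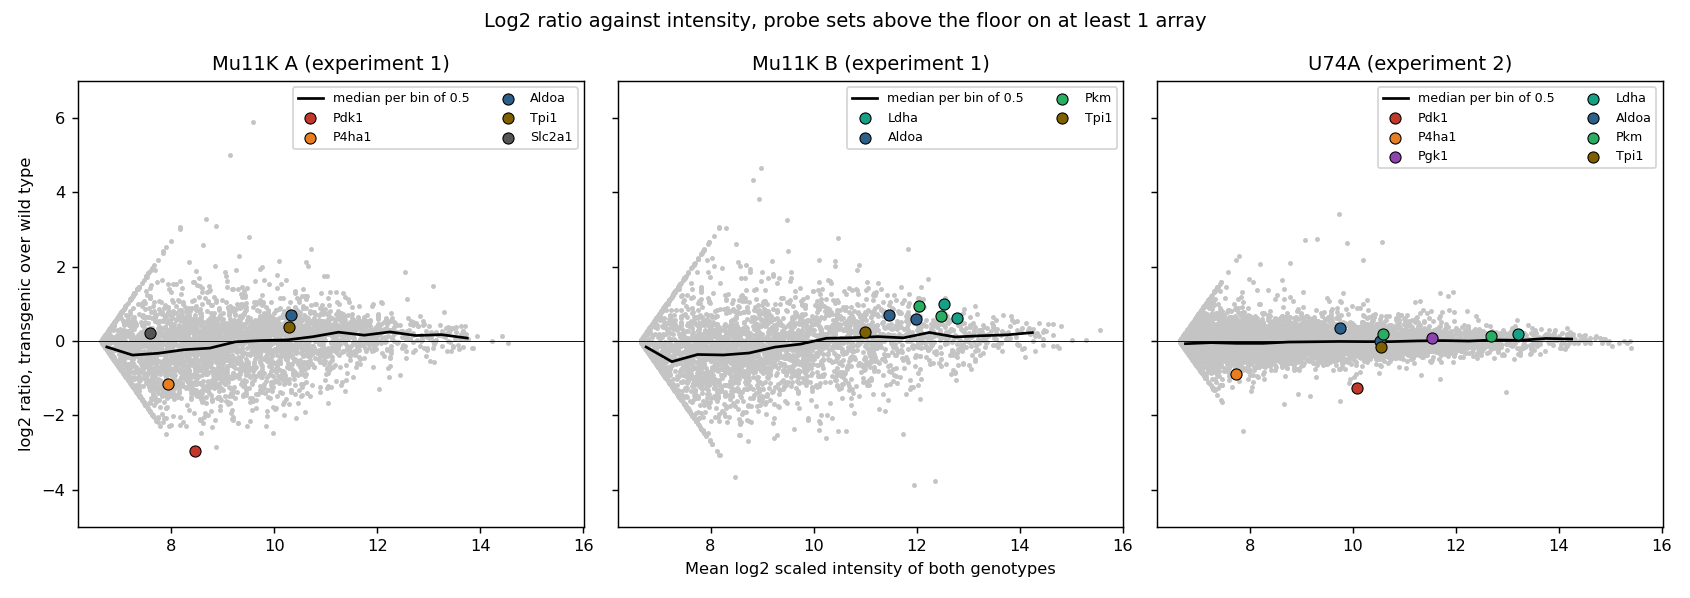
Log2 ratio of transgenic over wild type against the mean log2 scaled intensity of both genotypes, 1 panel per array type, with all probe sets above the floor in grey, the median per intensity bin as a black line and the members in colour. Pdk1 at -2.96 lies at the lower edge of Mu11K A, the Mu11K B members lie above the line, and U74A members other than Pdk1 and P4ha1 lie between -0.16 and 0.35.

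Other genes of the pathway came from 8 lists, and 65 of their genes that are no members were measured in both experiments. In limma's test of the mean log2 ratio, with Benjamini-Hochberg adjustment over all 3237 genes, 0 of the 65 were past 0.05 in either direction, and the smallest adjusted p was 0.703, for Gsk3a (0.0273 to 0.865 over the settings). At an unadjusted p under 0.05, 1 was higher in the mean of both experiments (Gsk3a) and 3 were lower (Kdm3a, Pik3r1 and Foxo3). Gsk3a had a log2 ratio of at least 2.83 in experiment 1, since the wild type lay below the floor, and of -0.003 in experiment 2. The share of all 3237 genes that was higher in both experiments was 23.9%, the share lower in both was 30.4%, and the counts of each list below stand beside these shares. The same test called 0.154% higher and 0% lower, with 81 genes higher and 127 lower at an unadjusted p under 0.05.

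Other steps of glycolysis showed no common direction. Of 10 genes measured in both experiments, 2 were higher in both, 2 were lower in both and 6 had opposite signs. The list's medians were -0.01 over 13 genes in experiment 1 and -0.11 over 14 genes in experiment 2, where all tested genes had -0.05 and -0.02. Hk1, which encodes the hexokinase that traps glucose as glucose 6-phosphate, had an intensity of 11396 in the transgenic sample and 7650 in the wild type in experiment 2 (log2 ratio 0.58). Its 2 probe sets of experiment 1, both of the family-sharing kind, gave -0.04 and -0.17. The liver-type phosphofructokinase gene Pfkl had log2 ratios of 1.60 and -0.07, and Pgam1, the phosphoglycerate mutase gene, 0.77 and 0.15. Bpgm, whose product makes 2,3-bisphosphoglycerate in red cells, had -1.49 and 0.26. The lactate transporter gene Slc16a1 had -1.12 and -0.20, with wild-type intensities of 722 and 2831 on the 2 arrays of experiment 1. Gapdh had 22063 in the transgenic sample and 17464 in the wild type on Mu11K B, a log2 ratio of 0.34, in a probe set of the family-sharing kind.

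The manufacturer's control probe sets, which read Gapdh in 3 places along the transcript, serve as a view of RNA quality. The Gapdh control sets of Mu11K B had log2 ratios of 0.38 at the 3′ end, 0.33 in the middle and -0.07 at the 5′ end, and those of U74A had 0.09, 0.11 and 0.14. The beta-actin control sets of Mu11K B had 0.15, 0.39 and 0.44 in the same order and those of U74A had -0.41, -0.42 and -0.20, so they were higher in transgenic cells in experiment 1 and lower in experiment 2, by amounts as large as several glycolytic ratios. The ratio of 3′ to 5′ intensity of Gapdh was 1.18 in the transgenic sample and 0.87 in the wild type for Mu11K B, and 0.766 in the transgenic sample and 0.792 in the wild type for U74A. For beta-actin it was 1.08 in the transgenic sample and 1.32 in the wild type for Mu11K B, and 1.36 in the transgenic sample and 1.58 in the wild type for U74A. The Mu11K B ratio was thus higher in the transgenic sample for Gapdh and lower for beta-actin, and the part of RNA quality in the member ratios was not tested.

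Of the Pdk1 partners, Pdha1, the catalytic subunit that Pdk1 phosphorylates, had log2 ratios of -0.87 in experiment 1 and 0.13 in experiment 2, and Dld, a subunit shared with other dehydrogenase complexes, had -0.79 and -0.06. In experiment 2, 4 of the 5 measured genes of the complex and its kinases were higher in the transgenic sample, with a median of 0.09. Of the 3237 genes measured in both experiments, 1509 were higher in experiment 2, with a median of -0.02. In experiment 1, 0 of the 2 measured genes of this list were higher (median -0.83), where 1517 of the 3237 genes were. The related kinase gene Pdk3 had 953.4 in the transgenic sample and 869 in the wild type in experiment 2, a log2 ratio of 0.13, against -1.27 for Pdk1 on the same array. Pdpk1, which encodes a different kinase of insulin signaling that is also called PDK1, had log2 ratios of -0.47 and -0.14 in its 2 probe sets of experiment 2.

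Among genes of collagen hydroxylation, 1 was higher and 2 lower in both experiments of 3 measured in both. The 2 lower were P4ha2 and Plod3, and Plod3 had log2 ratios of -0.003 and -0.47, so it hardly differed in experiment 1. P4ha2, the other main catalytic subunit, had a log2 ratio of at most -0.75 in experiment 1, since the transgenic sample lay below the floor, and its 2 probe sets of experiment 2 disagreed, at -0.87 (transgenic sample below the floor) and 0.31. P4hb, protein disulfide isomerase and beta subunit of the same enzyme, had 0.15 and 0.54, the opposite sign to P4ha1. The 0.54 came from a single U74A probe set, at 836.1 in the transgenic sample and 575.6 in the wild type. Another P4hb probe set of U74A lay below the floor in both genotypes, at 47.3 and 52.7.

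Regulators and other targets of the hypoxia response were mixed. Hif1a, the oxygen-regulated subunit of HIF-1, had 582.1 in the transgenic sample and 1109 in the wild type in experiment 1 (log2 ratio -0.93). By contrast, its 2 probe sets of experiment 2, both of the family-sharing kind described above, had log2 ratios of 0.07 and 0.06. Its partner Arnt had at most -0.97, since the transgenic sample lay below the floor, and -0.22, and the prolyl hydroxylase gene Egln1, measured in experiment 2, had 0.01. Of 13 other hypoxia targets measured in both experiments, 2 were higher and 6 lower in both, with list medians of -0.09 and -0.04. Kdm3a, a histone demethylase gene induced by HIF-1, had the largest difference shared by both, with 327.6 and 2481 in the transgenic samples against 654.4 and 3527 in the wild type (log2 ratios -0.998 and -0.51). It did not pass in limma (adjusted p = 0.774, and 0.725 to 0.906 over the settings). Zfp36l1 had log2 ratios of -0.17 and -0.38, and the chemokine receptor gene Cxcr4 had -0.09 and -0.29.

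The pentose phosphate pathway, which branches from glycolysis and makes NADPH and ribose phosphate, had 4 of 6 genes higher in both experiments and 0 lower in both, where 23.9% and 30.4% of all genes were. With 6 genes and no call in limma, this count describes the list only. Its medians were 0.31 and 0.21. Pgls had log2 ratios of 1.21 and 0.30, Tkt 0.75 and 0.26, and Taldo1 0.40 and 0.21, and none of these 3 passed in limma (adjusted p = 0.792 for Pgls, and 0.636 to 0.865 over the settings). Genes of the tricarboxylic acid cycle had medians of -0.01 and 0.09, with 2 higher and 1 lower in both of 11. Citrate synthase (Cs) had 0.39 and 0.17, and Idh3a -0.56 and -0.19. Of 13 regulators of glucose use, 1 was higher and 4 lower in both, with medians of 0.12 over 14 genes and -0.14 over 18. Foxo3 had log2 ratios of -1.58 and -0.21 (adjusted p = 0.769, limma, and 0.622 to 0.865 over the settings) and Pik3r1 had at most -1.47, since the transgenic sample lay below the floor, and -0.22 (adjusted p = 0.769, and 0.635 to 0.89). Myc, which drives glycolytic genes in growing T cells, had at least 1.29, since the wild type lay below the floor, and -0.30.

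**Figure D4:**
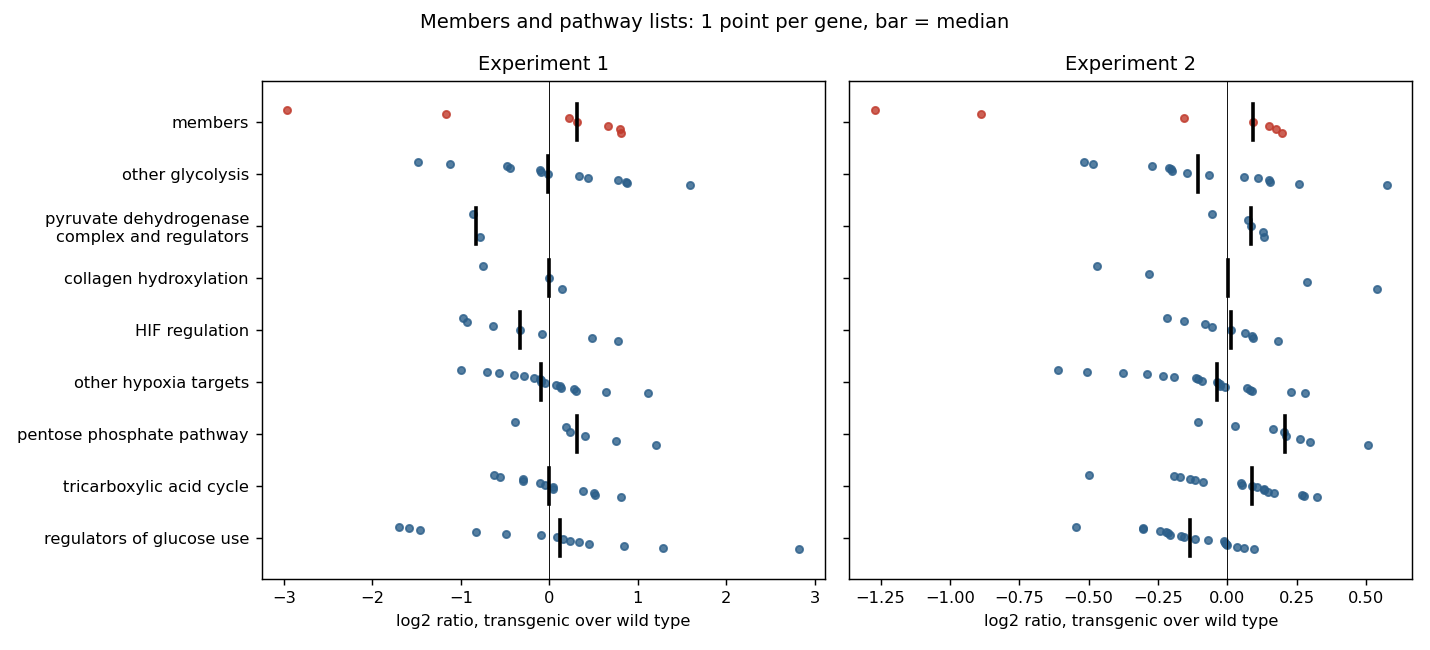
Each measured gene's log2 ratio, transgenic over wild type, for the members (red) and 8 pathway lists (blue), in experiment 1 and experiment 2, with a black bar at each median; the x axes of the panels differ in range. Pdk1 and P4ha1 lie apart from the other members in both panels, and the pentose phosphate genes have medians of 0.31 and 0.21.

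Genes whose pair of log2 ratios lay nearest to that of Pdk1, over 2 experiments and by Euclidean distance, were Timp1, Wdr78, Cd1d2, Cd28 and Abca1, at distances from 0.68 to 0.86. Timp1, an inhibitor of matrix metalloproteinases, had -2.78 and -0.62, and the costimulatory receptor gene Cd28 had -2.86 and -0.43. None of these 5 reached the ratio of Pdk1 in either experiment. The genes nearest to P4ha1 were Pecam1, Lmo4, Jak2, Tug1 and Arf2, at distances from 0.06 to 0.31. Pecam1, an endothelial and leukocyte adhesion molecule gene that is also 1 of the stromal markers, had at most -1.11 and at most -0.90, since both transgenic samples lay below the floor. Lmo4, a LIM-domain transcriptional cofactor gene, had -1.29 and -0.76, and the kinase gene Jak2 -1.34 and -0.68. With 2 ratios per gene, likeness here says no more than that these pairs of values are close.

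**Figure D5:**
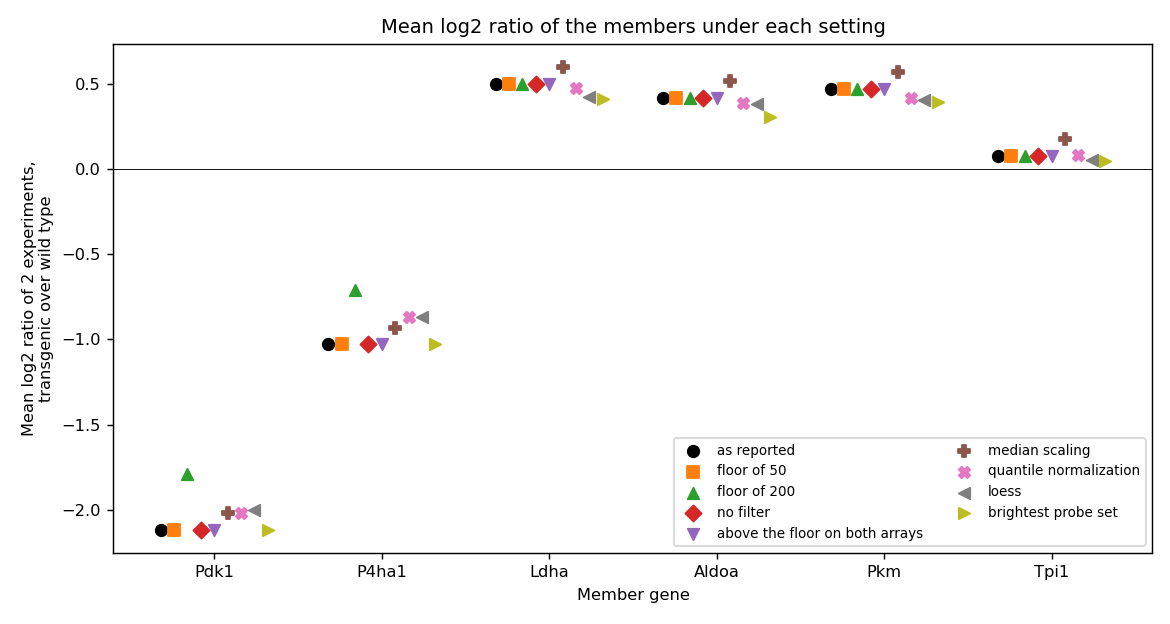
Mean log2 ratio of 2 experiments, transgenic over wild type, for the 6 members measured in both, as reported (black) and under 8 other settings of floor, filter, scaling and probe set choice. Pdk1 stays between -2.12 and -1.79 and P4ha1 between -1.03 and -0.71, Ldha, Aldoa and Pkm lie between 0.31 and 0.60, and Tpi1 lies between 0.05 and 0.18.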

How the data were processed

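Affymetrix intensities of sorted double-positive thymocytes were used from 6 arrays, 3 per genotype. The authors deposited 1 linear intensity for each probe set. Microarray Analysis Software versions 4 and 5 are given by the design text, and the submitters' processing notes name MAS5 for the U74A samples, while the scaling target is not given in the sources used here. AFFX control sets and 21 Mu11K A probe sets with no wild-type value were left out. Arrays were brought to a common 2% trimmed mean of 500, lower values were raised to a floor of 100, and log2 ratios were formed within an array type. A gene's ratio in an experiment is the mean over its probe sets that exceed the floor in either genotype. Only probe sets with 1 symbol in the platform annotation named a gene, checked against RefSeq (GRCm38.p6), which changed 0 names.

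Pathway genes were tested with limma (version 3.58.1, R 4.3.3), intercept of the ratios of both experiments against 0, two-sided, Benjamini-Hochberg over 3237 genes, threshold 0.05. In the setting reported, the prior variance had 12.1 degrees of freedom, which outweighs the 2 ratios of a gene. The p-values thus rest mostly on a variance shared over all genes, and that of a gene does not measure the spread between its own 2 pairs of pooled samples. Vhl, for example, had log2 ratios of -0.09 and -0.08 but a standard error of 0.338. Members got no test. The members and lists were chosen with earlier results of these data known. Named genes are Sox13, the members, up to 4 genes per list with the same sign in both experiments, partners and isoforms of the members, and the 5 nearest genes to Pdk1 and to P4ha1. Pdpk1, the control sets and the markers given with ratios were chosen after their values were seen. Alternatives were other floors, filters, scalings, the brightest probe set, an unpaired fit and single experiments. The number of arrays limits the precision.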

Additional observations from a re-analysis of the deposited data

How the results depend on the processing

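Under 8 other settings of floor, filter, scaling and probe set choice, each of the 6 members measured in both experiments kept the sign of its mean log2 ratio. The count of 2 members lower in both experiments did not move, and that of 3 higher in both was 4 with a floor of 50, which lets in Slc2a1. Pdk1 ranged from -2.12 to -1.79, and P4ha1 was -0.71 with a floor of 200, where its transgenic samples lie below the floor. In single experiments the members lower numbered 3 without experiment 1 and 2 without experiment 2, those higher 3 and 4, and the mean of Tpi1 was reversed to -0.16 without experiment 1. No test is possible with 1 ratio, so none was made there. The limma counts depended on the setting. The 5 genes higher became 0 with a floor of 50, 0 without a filter, 2 among probe sets above the floor on both arrays, 19 after median scaling, 12 after quantile normalization, 1 with the brightest probe set and 0 in the unpaired fit without the pairing by experiment as a block. The 0 genes lower became 1 with a floor of 200, 9 after median scaling, 3 after quantile normalization and 1 after loess. The degrees of freedom of the prior variance, 12.1 as reported, were 0.397 without a filter. After median scaling they were infinite, so a gene's own spread had no weight in its p-value there. Of the pathway genes, 1 (Gsk3a) passed after median scaling, where its wild-type level of experiment 1 lay below the floor, and the causes of these moves were not tested. Probe sets with a 2-fold difference numbered 410 on Mu11K A and 460 on Mu11K B with a floor of 200, against 632 and 718 as reported. On U74A they numbered 289 with a floor of 50, 47 with a floor of 200 and 70 above the floor on both arrays, against 109 as reported.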
